A study of Mus musculus with 9 samples.

Results

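The messenger RNAs of the cytosolic ribosomal proteins were followed in the mouse mammary tumour line E0771 after depletion of pyruvate carboxylase. Members were all genes on the array whose symbol starts with Rpl or Rps and a digit, or with Rplp and a digit, without the Rps6k kinases and without named pseudogenes. This gave 67 genes, each read by 1 of the 22206 probe sets of the array. Of these, 54 are proteins of the common ribosome (31 of the large subunit, 2 of the P stalk and 21 of the small subunit) and are called core members here. The other 13 are 9 paralogues, 3 retrocopies and Rps19bp1, which is no ribosomal protein but carries the name of its partner Rps19. Ribosomal proteins with no named probe set, among them Rplp2 and Rack1, were not analysed here.

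There were 3 arrays per group. Scram cells carried a scrambled hairpin, shPC25 and shPC28 cells carried 1 of 2 short hairpin RNAs against Pcx, the gene of pyruvate carboxylase, and all cells were lentivirally transduced with the pLKO.1 vector and selected with puromycin. All cells grew without treatment in DMEM with 5.6 mM glucose, 4 mM glutamine and 10% FBS. Whether arrays of a group stem from separate cultures is not stated, so that the p-values measure the spread between arrays, which may be technical. Pcx itself was lowered by both hairpins, by 3.54 on the log2 scale with shPC25 (SE 0.15, limma adjusted p = 1.28e-05) and by 2.26 with shPC28 (SE 0.15, limma adjusted p = 4.13e-06), and it was higher with shPC28 than with shPC25 by 1.28 (SE 0.15, limma adjusted p = 0.000307). Array medians lay between 4.88 and 5.04, and arrays of 1 group correlated at 0.995 to 0.998 across probe sets. Background was set at the 95th percentile of olfactory receptor probe sets, 4.00 to 4.24 by group. Of 7 mammary epithelial markers, Krt8 (13.74 to 14.46 by group mean, called higher with both hairpins), Epcam (6.75 to 7.49, lower with shPC28) and Cdh1 (4.89 to 5.50, higher with shPC28) were above it in every group, Krt14 was above it in scram alone (4.85, against 3.90 and 3.62, lower with both hairpins), and Krt5, Krt18 and Krt19 were below. Of 4 mesenchymal markers, Vim (17.15 to 17.33) and Zeb1 (13.77, 13.38 and 12.78, lower with both hairpins) were above it, and Cdh2 and Fn1 (2.31 to 2.68, higher with shPC28) below. The 3 macrophage markers measured stayed at or below 3.47 and the T cell markers Cd3e and Cd8a, the endothelial marker Kdr and the fibroblast markers Col1a2 and Dcn at or below 3.48. Markers of other cell types above background in every group were Cd4 (6.80 to 6.98), Col1a1 (6.21 to 7.17, lower with both hairpins) and Pecam1 (4.48 to 4.98), and Cdh5 was at the background level in scram (4.02) and lower with both hairpins (3.32 and 3.01). The part of these shifts in the ribosomal protein result was not tested.

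The ribosome is built from a small subunit, which reads the messenger RNA, and a large subunit, which joins the amino acids. Its proteins are made in matched amounts, and their messenger RNAs are among the most abundant of a growing cell. Many begin with a terminal oligopyrimidine tract, a C followed by a run of C and T (C and U in the RNA), through which mTOR signalling and the RNA-binding protein Larp1 control their translation and stability. Because the control acts largely on translation, the level of these messenger RNAs does not by itself give the rate at which ribosomal proteins are made. In cultured cells measured in bulk, a shift in the mix of cells and a shift in RNA per cell cannot be told apart.

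Core ribosomal protein messenger RNAs were higher with both hairpins, and more so with shPC28. The mean log2 value over the 54 core members was 15.95, 15.90 and 15.85 on the scram arrays, 16.16, 16.20 and 16.17 on the shPC25 arrays, and 16.46, 16.41 and 16.47 on the shPC28 arrays. The groups did not overlap, and the spread within a group (SD 0.049, 0.021 and 0.032, n = 3 each) was small beside the steps between group means of 15.90, 16.18 and 16.45. The members are not replicates of a condition, since all were read on the same 9 arrays and a shift of an array moves them together.

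**Figure D1:**
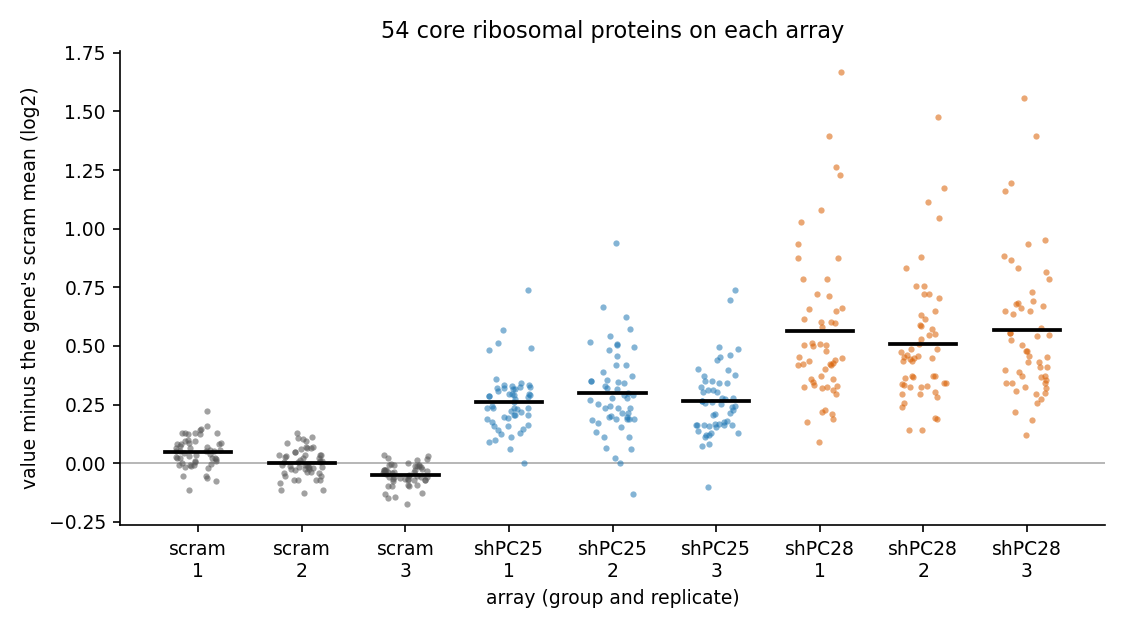
Each point is 1 of the 54 core ribosomal proteins on 1 array, as its log2 value minus its mean over the scram arrays, and the black lines are the means of the points. The mean over core members is 15.85 to 15.95 in scram, 16.16 to 16.20 with shPC25 and 16.41 to 16.47 with shPC28, and the points of the shPC28 arrays spread over the widest range.

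With shPC25, 26 of the 67 members were called higher than scram and 0 lower in the limma fit over all probe sets (adjusted p under 0.05), where 9.19% of all probe sets were called higher and 11.3% lower. The median log2 change was 0.25 over the members and 0.04 over all probe sets. On 59 members the 3 shPC25 arrays all lay above the 3 scram arrays, as they did for 20.2% of all probe sets. Among core members 19 of 54 were called higher, 10 of 31 of the large subunit, 0 of 2 of the P stalk and 9 of 21 of the small subunit, and 53 had a positive change. The count depended on every array of the comparison, since it was 17, 9 and 6 without scram replicate 1, 2 or 3 and 10, 8 and 10 without shPC25 replicate 1, 2 or 3, while the median change stayed between 0.25 and 0.28. It was 57 with an intensity trend and robust eBayes in the variance model (12.4% of all probe sets called higher). With arrays centred on olfactory receptor probe sets the count was 11 (6.11%). Without 1 array of the comparison, 5.40% to 6.61% of all probe sets were called higher.

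With shPC28, 57 members were called higher and 1 lower, beside 21.2% and 20.5% of all probe sets. The median log2 change was 0.48 over the members and 0.10 over all probe sets. The arrays did not overlap for 62 members that were higher with shPC28, beside 27.5% of all probe sets. All 21 small subunit members, both P stalk members and 27 of 31 large subunit members were called higher, and all 54 core members had a positive change. The 4 core members that did not pass were Rpl4, Rpl6, Rpl23 and Rpl11. The count of members called higher fell to 42 with quantile normalization, where 21.9% of all probe sets were called higher. It fell to 33 when arrays were centred on olfactory receptor probe sets, where 12.1% of all probe sets were called higher. Of the 54 core members, 35 and 26 were called higher under these scalings, in the same order. Olfactory centring lowered the median of all probe sets from 0.10 to -0.10 and that of the members from 0.48 to 0.28. Under the 3 other scalings tried (quantile normalization and centring on array medians or on olfactory receptor probe sets), 61 to 66 members kept a positive change with shPC28 and 64 to 65 with shPC25, and no member called in the main fit changed sign.

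The direct comparison of the hairpins called 27 members higher with shPC28 than with shPC25 and 0 lower, beside 11.8% and 14.5% of all probe sets. The median difference was 0.25 over the members and 0.04 over all probe sets, and the arrays did not overlap for 54 members that were higher with shPC28, beside 20.0% of all probe sets. Among core members 21 of 54 passed and all 54 differences were positive; under the other scalings 48 to 62 of the 67 differences were positive. The count was 13 and 16 without shPC25 replicate 1 or 3 and 17 and 16 without shPC28 replicate 1 or 3. Of all probe sets, 8.84%, 8.48%, 10.1% and 9.78% were called higher in these fits, in the same order. Pcx stood in the opposite order, being lower with shPC25, the hairpin with the smaller ribosomal protein change. Both comparisons against scram use the same 3 scram arrays, so they are not independent of each other.

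**Figure D2:**
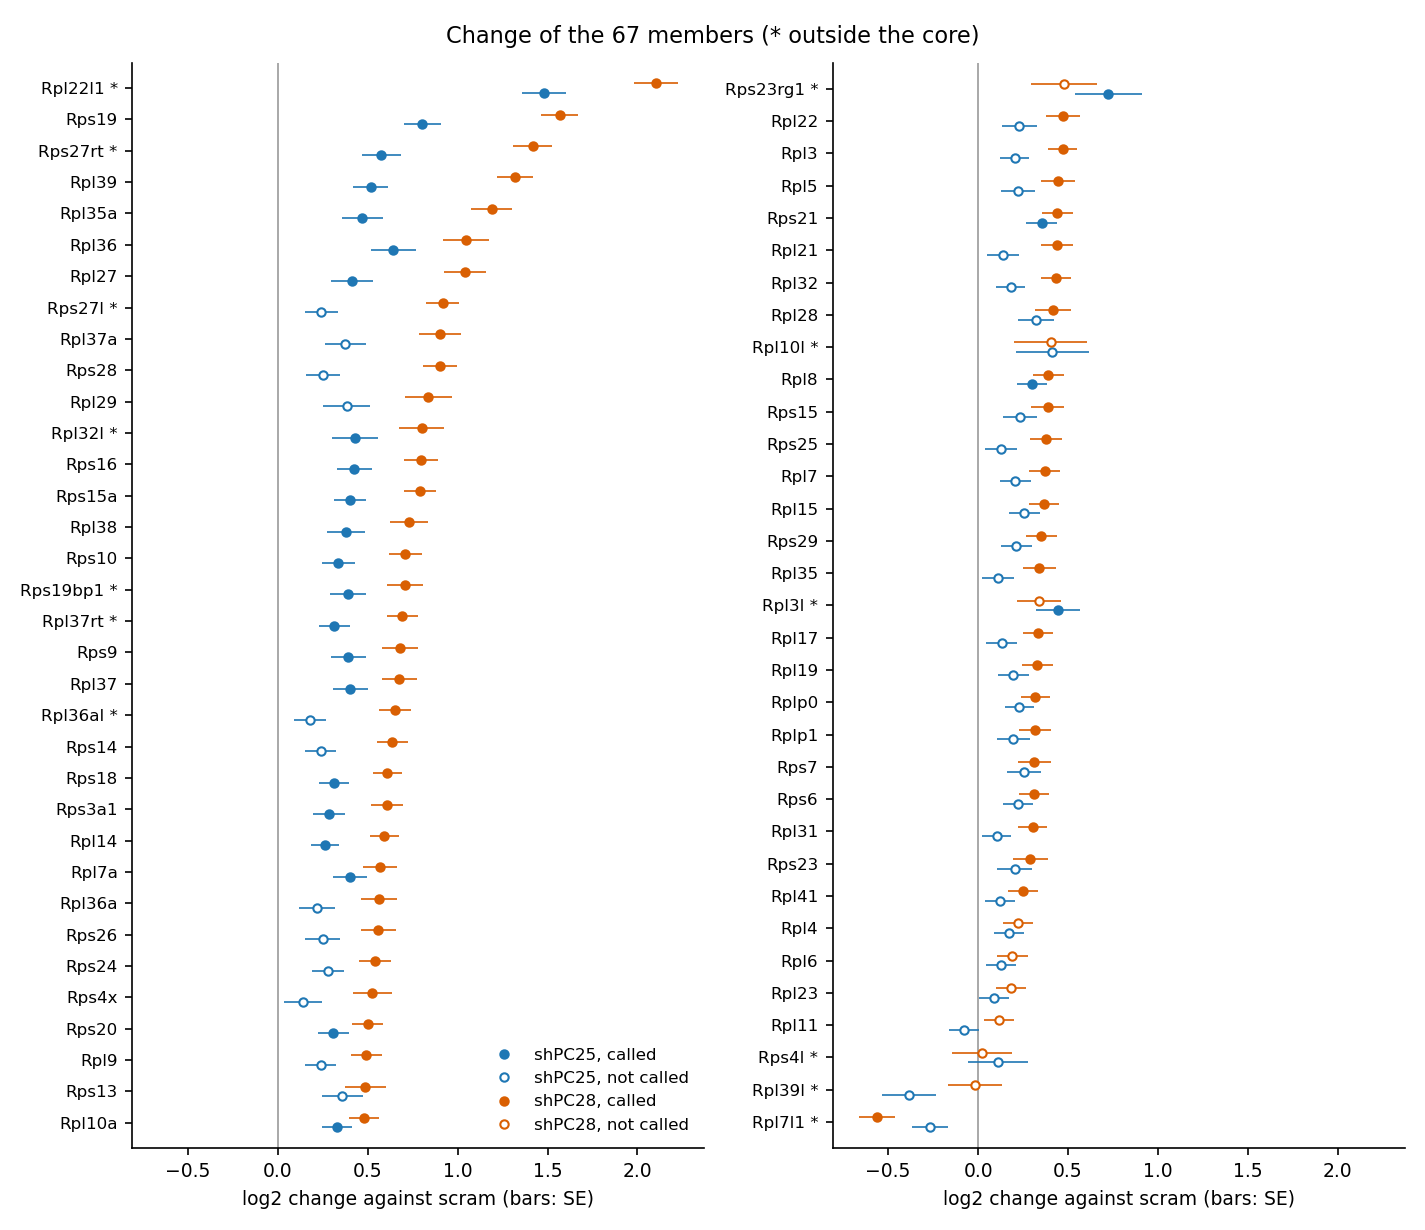
Log2 change of each of the 67 members against scram with shPC25 (blue) and shPC28 (orange), with bars of 1 SE from limma and members sorted by the shPC28 change. Filled points passed an adjusted p under 0.05, which 26 members did with shPC25 and 58 with shPC28, and the names with a star lie outside the core.

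The 2221 brightest probe sets were called higher more often than all probe sets. Of them, 20.5% were called higher with shPC25, 43.0% with shPC28 and 19.5% with shPC28 against shPC25. For all probe sets these were 9.19%, 21.2% and 11.8%. At the highest signals this did not hold for every comparison. Of 205 probe sets outside the members with a mean above 16, 11.2%, 37.6% and 7.32% were called higher. Probe sets of short genes were also called higher more often: of 1055 other protein-coding probe sets among the brightest 25% whose gene spans at most 10 kb, 26.2% were higher with shPC25 and 53.5% with shPC28 (median log2 change 0.14 and 0.33). Among the 1276 whose gene spans over 50 kb, these were 19.3% and 29.9%, and the median was 0.01 and -0.17. Called lower were 12.6% and 19.2% of the short and 21.8% and 44.4% of the long genes. Of the 54 core members, 53 span at most 10 kb, and of these 34.0% were higher with shPC25 and 92.5% with shPC28 (median 0.25 and 0.47). The part of gene span in the ribosomal protein result was not tested.

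Within the core, the size of the change went with the signal of the probe set. Across the 54 core members, which share arrays and are not independent, the log2 change and the mean signal over all arrays correlated at Spearman's rho = -0.75 for shPC25 (Pearson's r = -0.73), -0.88 for shPC28 (r = -0.90) and -0.73 for shPC28 against shPC25 (r = -0.86). The 18 core members with a mean signal at or below 16 had a median change of 0.38 with shPC25 and 0.76 with shPC28. The 36 above 16 had 0.22 and 0.38, and 205 other probe sets above 16 had 0.10 and 0.17. With shPC28, 32 of these 36 were called higher, and 77 of those 205. Signal depends on the probes as well as on the transcript, and the part of the array's response at high signal in this relation was not tested.

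**Figure D3:**
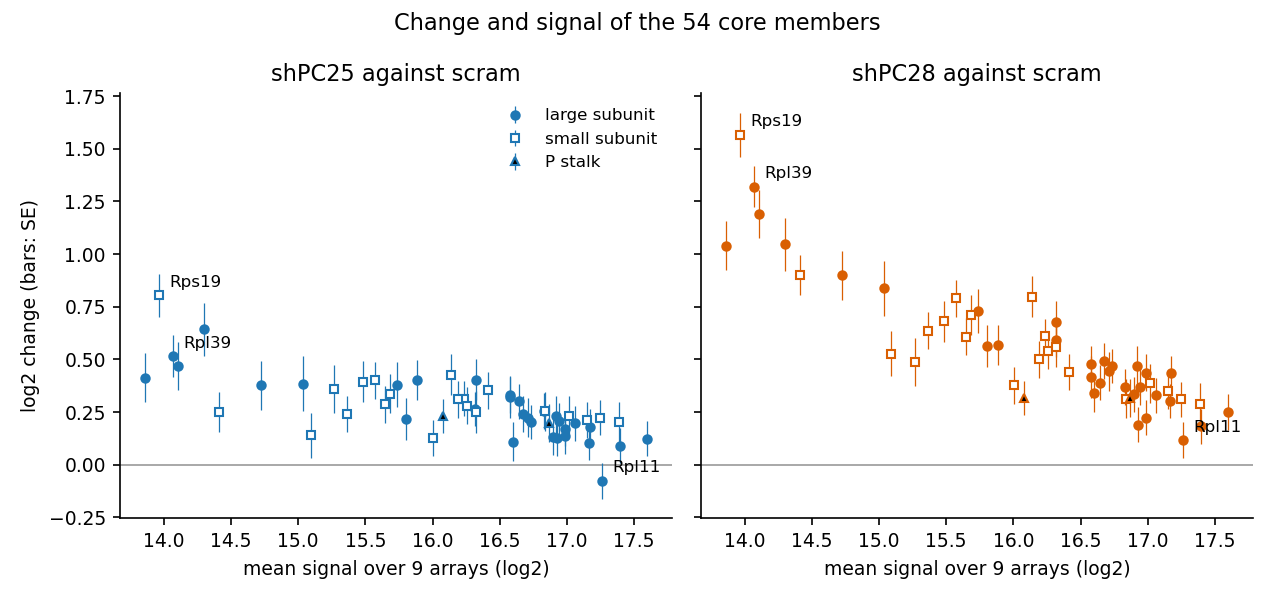
Log2 change against scram (bars, SE of the limma fit) of the 54 core members against the mean log2 signal of the probe set over 9 arrays, for shPC25 on the left and shPC28 on the right. Changes shrink as signal rises (rho = -0.75 and -0.88), from Rps19 at 0.80 and 1.57 to Rpl11 at -0.08 and 0.12.

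The start sites of these genes were read from RefSeq (GRCm38.p6), whose promoter table held 54 of the 67 members, 42 of them core. A tract, defined as a C at an annotated start followed by at least 4 bases that are each C or T on the gene's strand, stood at 13 of the 54 (24.07%) and at 11 of the 42 core members (26.19%), beside 467 of 17492 protein-coding genes (2.67%). The letters CCGGAA, a core of ETS factor sites, lay on either strand between 250 bases before and 50 after a start in 48.15% of the members and 20.9% of all protein-coding genes, and AAGATGG, a core of Yy1 sites, in 14.81% and 7.18%. A match describes letters at an annotated start and not a used start or a bound site. The 40 bases around the start are shown for the 4 tract members with the highest shPC28 changes in the core and for the 2 with the lowest, with the tract in capitals from the annotated start onwards.
Rpl35a: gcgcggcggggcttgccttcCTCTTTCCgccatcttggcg
Rps15a: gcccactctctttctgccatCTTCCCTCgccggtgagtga
Rpl38: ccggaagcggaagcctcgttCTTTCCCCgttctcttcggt
Rps10: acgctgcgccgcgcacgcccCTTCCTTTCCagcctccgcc
Rpl35: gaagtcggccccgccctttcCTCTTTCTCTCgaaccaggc
Rps6: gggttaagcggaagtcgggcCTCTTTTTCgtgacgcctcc
These windows lie at chr16:33056462-33056501 (plus strand), chr7:118116128-118116167 (minus), chr11:114668560-114668599 (plus), chr17:27635225-27635264 (minus), chr2:39005112-39005151 (minus) and chr4:86857348-86857387 (minus). Their genes changed with shPC28 by 1.19, 0.79, 0.73, 0.71, 0.34 and 0.31 in the same order, a range set by the choice of genes from both ends. The shPC28 changes ran from 0.31 to 1.19 over the 11 core members with a tract. Over the 31 without one they ran from 0.12 to 1.57. All 11 core members with a tract were called higher with shPC28 (median 0.59), beside 21.2% of all probe sets. So were 27 of the 31 with no tract at an annotated start (median 0.49). With shPC25 these were 7 of 11 (median 0.32) and 9 of 31 (median 0.24), beside 9.19% of all probe sets. Whether the change differed with the tract was not tested.

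Another 4 members without a tract at the annotated start are shown because the results below turn on them, with the start at the base after the first 20.
Rpl39: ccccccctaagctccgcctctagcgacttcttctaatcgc
Rpl22l1: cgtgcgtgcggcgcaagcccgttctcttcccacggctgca
Rpl11: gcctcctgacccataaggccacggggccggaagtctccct
Rpl7l1: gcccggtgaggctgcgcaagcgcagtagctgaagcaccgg
They lie at chrX:37085203-37085242 (minus strand), chr3:28805488-28805527 (plus), chr4:136053374-136053413 (minus) and chr17:46782637-46782676 (minus). With shPC28, Rpl22l1 had the highest change of all members and Rpl7l1 the lowest, and in the core Rpl39 had the second highest and Rpl11 the lowest.

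Among core members, Rps19 had the highest change with either hairpin. Rps19 is a small subunit protein needed for maturation of the small subunit RNA, and in humans it is the gene most often mutated in Diamond-Blackfan anaemia. Its log2 values were 13.26, 13.18 and 13.08 in scram, 13.91, 14.11 and 13.91 with shPC25, and 14.84, 14.65 and 14.73 with shPC28. The 3 groups were fully apart. Rps19 rose by 0.80 with shPC25 (SE 0.10, 1.74-fold, limma adjusted p = 0.00107) and by 1.57 with shPC28 (SE 0.10, 2.96-fold, limma adjusted p = 4.70e-06), and the hairpins differed by 0.76 (SE 0.10, limma adjusted p = 0.000761).

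Rpl39, a very small protein that lines the exit tunnel of the large subunit, had the second highest core change with shPC28 and the third highest with shPC25, after Rps19 and Rpl36. Its values were 13.52, 13.49 and 13.36 in scram, 13.97, 14.00 and 13.95 with shPC25, and 14.85, 14.63 and 14.85 with shPC28. Again no array of 1 group reached another group. Rpl39 rose by 0.52 (SE 0.10, 1.43-fold, limma adjusted p = 0.00685) and 1.32 (SE 0.10, 2.50-fold, limma adjusted p = 9.53e-06), and the difference between the hairpins was 0.80 (SE 0.10, limma adjusted p = 0.000448).

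Rpl35a, a large subunit protein that is also mutated in some patients with Diamond-Blackfan anaemia, had values of 13.65, 13.59 and 13.43 in scram, 14.04, 14.18 and 13.86 with shPC25, and 14.82, 14.67 and 14.75 with shPC28. It rose by 0.47 and 1.19 (SE 0.11, limma adjusted p = 0.0190 and 3.68e-05). Rpl36, another large subunit protein, had values of 13.88, 13.76 and 13.56 in scram, 14.30, 14.40 and 14.43 with shPC25, and 14.96, 14.78 and 14.60 with shPC28. It rose by 0.64 and 1.05 (SE 0.13, limma adjusted p = 0.00737 and 0.000144). Both were higher on every hairpin array than on any scram array, and with shPC28 than with shPC25.

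Rps28, a small subunit protein, was among the 6 members with the largest difference between the hairpins. Its values were 13.91, 14.13 and 14.04 in scram, 14.26, 14.24 and 14.33 with shPC25, and 14.96, 14.86 and 14.96 with shPC28. With shPC25 the change of 0.25 did not pass (limma adjusted p = 0.0992), whereas it rose by 0.90 with shPC28 (limma adjusted p = 6.49e-05), and the hairpins differed by 0.65 (SE 0.09, limma adjusted p = 0.00106). The other core members called higher with shPC28 had changes between 0.25 (Rpl41) and 1.04 (Rpl27).

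At the other end of the core stood Rpl11, which together with Rpl5 forms a particle with the smallest ribosomal RNA of the large subunit. When ribosome assembly fails, this particle binds Mdm2, the ubiquitin ligase of the tumour suppressor p53, and blocks it. Rpl11 had values of 17.23, 17.24 and 17.28 in scram, 17.25, 17.12 and 17.15 with shPC25, and 17.34, 17.39 and 17.37 with shPC28. Its change was -0.08 with shPC25 (SE 0.08, limma adjusted p = 0.585) and 0.12 with shPC28 (SE 0.08, limma adjusted p = 0.303), neither past the threshold. Rpl5 had values of 16.41, 16.60 and 16.45 in scram, 16.76, 16.72 and 16.65 with shPC25, and 16.94, 16.86 and 16.99 with shPC28. The change of Rpl5 was 0.22 with shPC25 (limma adjusted p = 0.135), and it rose by 0.44 with shPC28 (limma adjusted p = 0.00438). Whether Rpl5 and Rpl11 differed in their change was not tested. Mdm2 fell by 0.77 with shPC25 (limma adjusted p = 0.00199) and by 2.48 with shPC28 (limma adjusted p = 9.06e-07), and Cdkn1a, a p53 target, had changes of -0.21 and -0.08 that did not pass. Trp53, the gene of p53, had no named probe set, and p53 activity was not tested. Rpl23, another large subunit protein known to bind Mdm2, had changes of 0.09 and 0.18 that did not pass (limma adjusted p = 0.507 and 0.110).

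The P stalk recruits translation factors to the large subunit. Rplp0, its base, had values of 15.90, 15.90 and 15.88 in scram, 16.11, 16.09 and 16.17 with shPC25, and 16.24, 16.19 and 16.20 with shPC28. Its change with shPC25 was 0.23 (SE 0.08, limma adjusted p = 0.0799), and it rose by 0.32 with shPC28 (SE 0.08, limma adjusted p = 0.0119). Rplp1 had 16.78, 16.68 and 16.63 in scram, 16.86, 16.85 and 16.97 with shPC25, and 17.01, 17.06 and 16.97 with shPC28. The change of Rplp1 was 0.20 with shPC25 (limma adjusted p = 0.166), and it rose by 0.32 with shPC28 (limma adjusted p = 0.0193). Both genes were above every scram array on every hairpin array.

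Rpl4 and Rplp0 serve as reference genes in the study's quantitative PCR. Rpl4 had values of 16.79, 16.90 and 16.87 in scram, 17.00, 17.05 and 17.02 with shPC25, and 17.08, 17.04 and 17.11 with shPC28. The arrays with either hairpin lay above all scram arrays, but neither change passed, at 0.17 with shPC25 (SE 0.08, 1.13-fold, limma adjusted p = 0.197) and 0.22 with shPC28 (SE 0.08, 1.17-fold, limma adjusted p = 0.0590). These are among the smaller changes of the core. In linear terms the change of Rplp0 was 1.17-fold with shPC25 and 1.25-fold with shPC28.

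Paralogues are second genes for a ribosomal protein that can replace it or act in its place during assembly. Rpl22l1, the paralogue of the RNA-binding large subunit protein Rpl22, had the highest change of all members with both hairpins. In mice Rpl22 is known to hold down the expression of Rpl22l1. Rpl22l1 had values of 8.97, 8.93 and 8.70 in scram, 10.35, 10.50 and 10.19 with shPC25, and 11.07, 11.01 and 10.83 with shPC28, so that the groups were apart by more than their own ranges. It rose by 1.48 with shPC25 (SE 0.12, 2.79-fold, limma adjusted p = 0.000175) and by 2.10 with shPC28 (SE 0.12, 4.30-fold, limma adjusted p = 2.53e-06), with a difference between the hairpins of 0.62 (SE 0.12, limma adjusted p = 0.00567). Rpl22 itself had values of 16.67, 16.79 and 16.59 in scram, 16.98, 16.87 and 16.89 with shPC25, and 17.10, 17.12 and 17.24 with shPC28. The change of Rpl22 was 0.23 with shPC25 (limma adjusted p = 0.130), and it rose by 0.47 with shPC28 (limma adjusted p = 0.00344). No array with a hairpin had less Rpl22 signal than any scram array.

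Rpl7l1 was the only member called lower in the fit over all 9 arrays, and only with shPC28. It is the relative of the large subunit protein Rpl7, and its yeast counterpart works in the assembly of the large subunit and not in the finished ribosome. Rpl7l1 had values of 14.27, 14.12 and 14.24 in scram, 13.93, 14.05 and 13.85 with shPC25, and 13.73, 13.54 and 13.67 with shPC28. The 3 groups did not overlap, in the reverse order of the core members. The change was -0.27 with shPC25 (SE 0.10, limma adjusted p = 0.0992), and Rpl7l1 fell by 0.56 with shPC28 (SE 0.10, limma adjusted p = 0.00163), with a difference between the hairpins of -0.30 that did not pass (limma adjusted p = 0.0589). Rpl7 had values of 16.83, 16.73 and 16.68 in scram, 16.95, 17.00 and 16.91 with shPC25, and 17.17, 17.09 and 17.09 with shPC28. It had a change of 0.21 with shPC25 (limma adjusted p = 0.138) and rose by 0.37 with shPC28 (limma adjusted p = 0.00804).

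**Figure D4:**
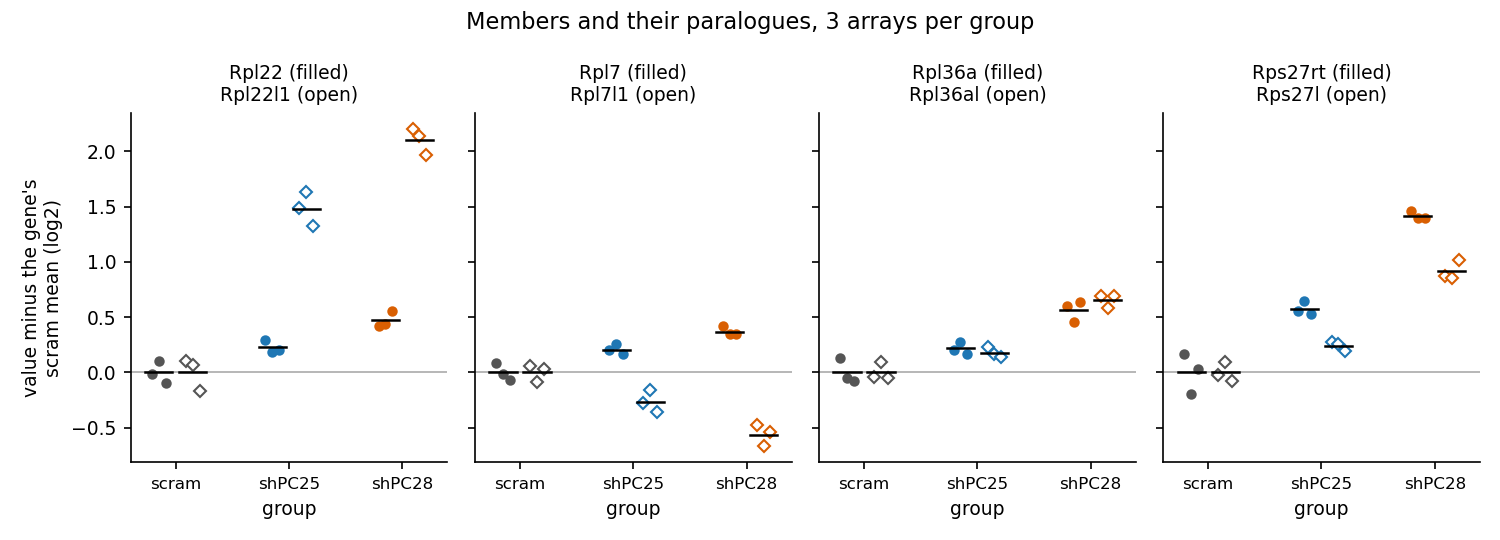
Log2 values of 4 pairs of members on each of the 9 arrays, minus the scram mean of the same gene, with black lines at the group means. Rpl22l1 stands 1.48 and 2.10 above scram where Rpl22 stands 0.23 and 0.47 above it, and Rpl7l1 stands 0.27 and 0.56 below scram where Rpl7 stands above it.

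Rps27l, the paralogue of the small subunit protein Rps27 and a p53 target in human cells, had values of 11.90, 12.02 and 11.85 in scram, 12.20, 12.18 and 12.12 with shPC25, and 12.80, 12.78 and 12.94 with shPC28. Its change of 0.24 with shPC25 did not pass (limma adjusted p = 0.105), and it rose by 0.92 with shPC28 (limma adjusted p = 5.56e-05). Rps27rt, a retrocopy of Rps27, had values of 12.47, 12.11 and 12.33 in scram, 12.86, 12.95 and 12.83 with shPC25, and 13.76, 13.70 and 13.70 with shPC28. It rose by 0.58 and 1.42 (SE 0.11, limma adjusted p = 0.00656 and 1.10e-05) and had the largest difference between the hairpins of all members, 0.84 (limma adjusted p = 0.000601). Probes for near-identical copies can read the parent transcript, so the values of Rps27rt, Rpl37rt, Rpl32l, Rpl36al and Rps23rg1 may belong in part to another gene.

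Rpl37rt rose by 0.31 and 0.69 and its parent Rpl37 by 0.40 and 0.68. Rpl32l rose by 0.43 and 0.80, while Rpl32 had a change of 0.18 that did not pass with shPC25 and rose by 0.43 with shPC28. Rpl36al had 0.18 with shPC25 and rose by 0.65 with shPC28, close to Rpl36a at 0.22 and 0.56. Rps23rg1, the retrocopy of Rps23, was near background at 4.33, 4.50 and 4.81 in scram, 5.27, 5.23 and 5.31 with shPC25, and 4.64, 5.09 and 5.34 with shPC28. It rose by 0.72 with shPC25 (SE 0.19, limma adjusted p = 0.0245), and its 0.48 with shPC28 did not pass (limma adjusted p = 0.0680), with arrays that overlapped scram. Rps19bp1, a binding partner of Rps19 and a regulator of the deacetylase Sirt1, rose by 0.39 and 0.71 (limma adjusted p = 0.0249 and 0.000409).

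Of the 67 members, 64 lay above the olfactory receptor background in each group, all 54 core members among them. The 3 below it were Rpl3l, the muscle form of Rpl3, Rpl39l, the testis form of Rpl39, and Rps4l, which RefSeq lists as a transcribed pseudogene. Rpl3l passed with shPC25 at a change of 0.44 (limma adjusted p = 0.0339), with values of 2.74, 2.82 and 2.65 in scram and 3.16, 3.34 and 3.04 with shPC25, and at this signal no level can be read from it. Rpl39l had changes of -0.38 and -0.02 and Rps4l of 0.11 and 0.02, none past the threshold. Rpl10l, the testis form of Rpl10, lay just above background and had changes of 0.41 and 0.40 that did not pass.

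The changes of 2 ribosomal proteins whose symbols fall outside the rule were also positive. Rpsa, the small subunit protein also known as the laminin receptor, had a change of 0.30 with shPC25 (limma adjusted p = 0.0608) and rose by 0.53 with shPC28 (limma adjusted p = 0.00202). Fau, whose product is cleaved to give a small subunit protein, had 0.21 (limma adjusted p = 0.114) and rose by 0.36 (limma adjusted p = 0.00728). Of 17 translation factors and other messenger RNAs known to carry the tract, 4 were called higher for shPC25 (median 0.21) and 13 for shPC28 (median 0.36), and 0 lower for either, beside 9.19% and 21.2% of all probe sets and 20.5% and 43.0% of the 2221 brightest called higher. Between the hairpins, 2 of the 17 were called higher and 0 lower (median 0.18), where 11.8% and 14.5% of all probe sets were. Eif3f, a subunit of initiation factor eIF3, rose by 0.69 with shPC28 and Tpt1, the translationally controlled tumour protein, by 0.53. The abundant elongation factor gene Eef1a1 had changes of 0.02 and 0.08 that did not pass. Of 76 mitochondrial ribosomal proteins, made in the cytosol for the separate ribosome of mitochondria, 30 were called higher and 3 lower for shPC25 (median 0.29), 60 and 2 for shPC28 (median 0.78), and 39 and 1 between the hairpins (median 0.43, beside 11.8% and 14.5% of all probe sets). The 67 cytosolic members had medians of 0.25, 0.48 and 0.25, with 27 called higher and 0 lower between the hairpins, and the difference between both sets was not tested.

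Of 30 ribosome biogenesis factors, 10 were called higher and 4 lower for shPC25 (median 0.17) and 12 higher and 9 lower for shPC28 (median 0.10). Of all probe sets, 9.19% were higher and 11.3% lower for shPC25, and 21.2% and 20.5% for shPC28. With shPC28 against shPC25, 2 of the 30 were called higher and 9 lower (median -0.14), where 11.8% and 14.5% of all probe sets were. Utp14a, of the small subunit processome, rose by 0.68 and 1.02 and Npm1, nucleophosmin, by 0.37 and 0.49. Ltv1 and Tsr1, which assemble the small subunit, fell by 0.40 and 0.40 with shPC25 and by 1.36 and 1.21 with shPC28. Ubtf, the factor that opens ribosomal DNA for RNA polymerase I, fell by 0.43 and 1.18.

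Dedicated chaperones escort single ribosomal proteins to the nucleolus. Of the 9 measured, 3 were called higher and 0 lower for shPC25, and 4 higher and 4 lower for shPC28 (all probe sets 9.19% and 11.3%, and 21.2% and 20.5%). Those that rose with shPC28 were Pdcd2 (1.27) and Pdcd2l (1.03), partners of Rps2, Tsr2 (0.69), the chaperone of Rps26, and Bccip (0.61), a partner of Rpl23. Those that fell with shPC28 were Rrs1 (-0.83) and Rpf2 (-0.46), which place the Rpl5 and Rpl11 particle into the large subunit, Heatr3 (-0.82), which imports that particle, and Grwd1 (-0.75), the partner of Rpl3. With shPC25 none of these last 4 passed, at 0.06, 0.00, -0.22 and -0.17. In the direct comparison of the hairpins, 3 of the 9 were called higher and 4 lower with shPC28 (all probe sets 11.8% and 14.5%).

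Of 13 regulators of ribosomal protein synthesis, 3 were called higher and 5 lower for shPC25 (median -0.11), and 2 higher and 9 lower for shPC28 (median -1.12), beside 9.19% and 11.3%, and 21.2% and 20.5%, of all probe sets. Between the hairpins, 0 were called higher and 9 lower with shPC28 (median -0.81), beside 11.8% and 14.5% of all probe sets. Larp1, which binds the tract, had values of 14.67 (SD 0.049) in scram, 14.09 (SD 0.040) with shPC25 and 13.14 (SD 0.12) with shPC28, n = 3 each. It fell by 0.59 (SE 0.09, limma adjusted p = 0.00297) and by 1.53 (SE 0.09, limma adjusted p = 3.01e-06). Rptor, the subunit that gives mTOR its growth substrates, fell by 0.72 and 2.26 (limma adjusted p = 0.00465 and 1.97e-06), and Larp4b, an RNA-binding relative of Larp1, by 0.95 and 3.85 (limma adjusted p = 0.00654 and 9.25e-07). Mtor had changes of -0.07 and -0.14 that did not pass. Eif4ebp1, an mTOR substrate that represses initiation, rose by 0.84 and 1.07 (limma adjusted p = 0.000822 and 3.70e-05). Myc, a transcription factor that drives ribosomal protein genes, rose by 0.34 with shPC25 (limma adjusted p = 0.0394) and fell by 0.47 with shPC28 (limma adjusted p = 0.00427). Gabpa, a factor of the ETS family, fell by 0.36 and 1.21, and Yy1 had -0.22 with shPC25 and fell by 0.87 with shPC28. Larp4b spans 80.8 kb and belongs to the bright genes of over 50 kb described above, of which 21.8% were called lower with shPC25 and 44.4% with shPC28. Rptor spans 297 kb, with a signal below the brightest 25%. The spans of the other regulators, Larp1 among them, were not read out.

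Of 10 factors of ribosome quality control and storage, 2 were called higher and 1 lower for shPC25 and 2 higher and 3 lower for shPC28, beside 9.19% and 11.3%, and 21.2% and 20.5%, of all probe sets. With shPC28 against shPC25, 0 were called higher and 2 lower, beside 11.8% and 14.5% of all probe sets. Zfp598, the ligase that marks small subunit proteins of collided ribosomes, rose by 1.40 and 1.61. Usp10, which removes such marks, fell by 0.81 and 1.51.

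**Figure D5:**
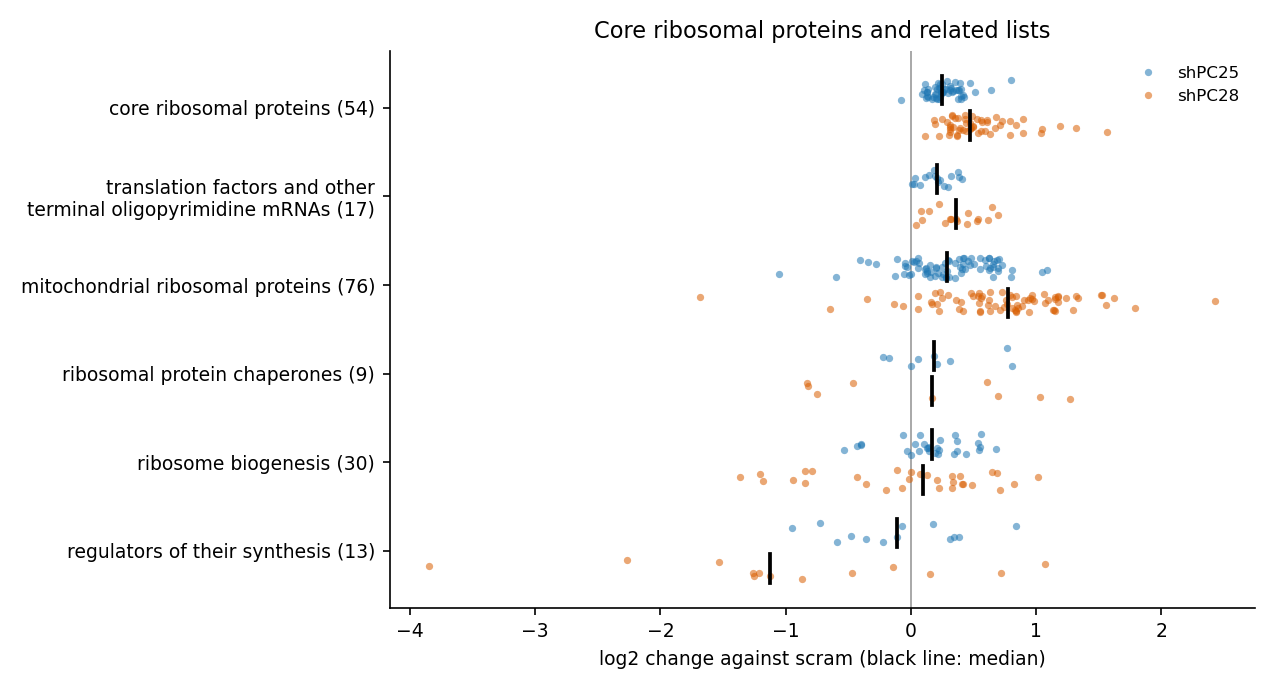
Log2 change against scram of single genes (points) in 6 lists, shPC25 in blue and shPC28 in orange, with the number of genes in parentheses and the median as a black line. Of the core ribosomal proteins, 53 of 54 lie above 0 with shPC25 (-0.08 to 0.80, median 0.25). With shPC28 all 54 do (0.12 to 1.57, median 0.47). Chaperones, biogenesis factors and regulators spread to both sides of 0.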

How the data were processed

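Messenger RNA of 9 samples of E0771 cells, 3 each of scram, shPC25 and shPC28, was measured on Clariom S mouse arrays. The authors processed the arrays with Transcriptome Analysis Console, and the deposited values were read as log2 signal, normalized between arrays, 1 for each probe set. That the logarithm has base 2 is inferred from the range of 1.51 to 18.64, and the normalization algorithm is not given in the sources used here. Symbols came from the platform annotation, which named 19572 of 22206 probe sets. No probe set was removed.

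All 9 arrays entered 1 linear model with a mean for each group (R 4.3.3, limma 3.58.1, lmFit and eBayes). Two-sided p-values received Benjamini-Hochberg adjustment across all 22206 probe sets, and genes with an adjusted p under 0.05 are named as called. The fit was checked on simulated data. The number of arrays limits the precision, with a median SE of 0.088 for core members. Genes are compared by their change and not by their level, since probe sets differ in response.

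Named members were, for each comparison, the 6 highest and the 4 lowest changes, every member called lower, the P stalk, the reference genes Rpl4 and Rplp0, paralogues with their partners, Rps19bp1, Rpl5 and Rpl11, and ribosomal proteins outside the rule. Rpl6, Rpl27, Rpl37, Rpl37rt and Rpl41, the 5 genes beside Rpl35a whose tracts are printed, and the genes named in other lists were chosen after their values were seen. Members and lists were chosen with earlier results of these data known. Start sites came from RefSeq promoters of GRCm38.p6, and gene spans from the RefSeq gene table of the same assembly, and the split by span was added after the values were seen. Alternatives were filters on dim probe sets, other scalings and variance models, array weights, fits of 2 groups, a replicate block, and leaving out each array.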

Additional observations from a re-analysis of the deposited data

How the results depend on the processing

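No member called in the fit over all 9 arrays changed sign under any of 19 alternative fits. Of the calls, 5 of 26 with shPC25, 34 of 58 with shPC28 and 10 of 27 between the hairpins were kept in every alternative in which the gene was present. With shPC25, 26 members were called higher, beside 9.19% of all probe sets. Without the dimmest 50% and 90% of probe sets this became 47 of 62 and 51 of 58 members present, beside 22.4% and 43.9%. It was 17 with quantile normalization (10.6% of all probe sets) and 47 with arrays centred on their medians (14.2%). Centring on olfactory receptor probe sets gave 11 (6.11%), and an intensity trend with robust eBayes gave 57 (12.4%). When 1 array was left out the count was 6 to 25 (5.40% to 8.95%). Members called lower went from 0 to 1 without the dimmest 50% or 90%, with olfactory centring and with the trend (Rpl7l1 each time), and were 0 to 1 when 1 array was left out (Rpl39l, below background, without scram replicate 2). The median change of 0.25 became 0.19 with quantile normalization, 0.35 with median centring and 0.18 with olfactory centring. With shPC28, the 57 members called higher, beside 21.2% of all probe sets, became 42 with quantile normalization (21.9%). They became 33 with olfactory centring, where 12.1% of all probe sets were called higher. The 1 called lower became 0 when only core members were counted. The median of 0.48 became 0.36, 0.58 and 0.28 with quantile, median and olfactory scaling. Between the hairpins, 27 were called higher, beside 11.8% of all probe sets. Without the dimmest 50% and 90% this became 41 of 62 and 44 of 58 members present (24.4% and 39.3% of all probe sets). The count was 10 with olfactory centring (6.69%), 50 with the trend (14.5%) and 16 in a fit of only the 2 groups (8.97%). It was 13 to 25 when 1 array was left out (8.48% to 10.9%). Members called lower went from 0 to 1, again Rpl7l1, without the dimmest 25%, 50% or 90%, with quantile normalization, with olfactory centring and with the trend, and the median of 0.25 became 0.16 with quantile normalization and 0.13 with olfactory centring. Fits with 1 array fewer have fewer samples; the cause of the other shifts was not tested. The mean of several probe sets per gene could not be tried, since no member had more than 1.

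The labels number the samples 1 to 3 in each group. Samples with the same number did not deviate together over all probe sets but weakly in opposite directions. Their correlations were -0.18 to -0.14, beside 0.05 to 0.13 for different numbers. Over the members these were -0.46 to 0.39 and -0.46 to 0.44. Deviations from a group mean cancel out within the group. The values for different numbers are therefore not independent of those for the same number. The main fit does not model structure by sample number, and the source of that structure was not tested. With the number as a replicate block, 7 members were called higher with shPC25, 51 with shPC28 and 13 between the hairpins. Of all probe sets, 5.27%, 17.6% and 8.17% were called higher in the same fit. Centring on olfactory receptor probe sets moved the median of all probe sets with shPC28 from 0.10 to -0.10 and centring on array medians moved it to 0.20.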
